A study of Mus musculus with 8 samples.

Results

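Intraflagellar transport moves building material along the axoneme of cilia and flagella, and 36 genes of its machinery are described here in testes that lack Miwi. The members were chosen by symbol: genes of the IFT-A and IFT-B trains, the BBSome and its chaperonin-like assembly factors, the kinesin-2 motor and the dynein-2 motor. They are 36 of the 21949 genes in the deposited tables, and each is represented by its transcript with the highest mean count over the 8 libraries. All 36 passed the filter on low counts, and the lowest count of any member in any library was 27, for Bbs12.

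The study sequenced ribosome-protected fragments (RPF, called footprints here, which are stretches of mRNA left after digestion because a ribosome covered them) and total RNA from whole testes of mice at postnatal day 24. The groups were Miwi-null mice and wild-type (WT) mice, both of the C57BL/6 strain, and each genotype had 2 RPF libraries and 2 total RNA libraries. Miwi, encoded by Piwil1, is a PIWI-clade Argonaute protein of male germ cells. The labels give no design of the null allele and name no animals, so the spread between replicates may be partly technical.

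In the trains, kinesin-2 carries IFT-B, IFT-A and their cargo to the tip of the axoneme and dynein-2 carries them back. The BBSome is an adaptor that rides on the trains and moves membrane proteins. In the male germ line of mammals the sperm flagellum is an outgrowth of the spermatid, and in mice the loss of several IFT genes, among them Ift88, Ift140, Ift172 and Ift27, leaves short or malformed sperm tails.

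Many ciliary genes carry an X-box, the inverted repeat that RFX transcription factors bind, so the start regions of the members were searched for its letters. RefSeq promoter windows of build GRCm38.p6, which run from 250 bases before to 50 bases after the start site, were on hand for 32 of the 36 members and were not found for Ift122, Ift81, Ift80 and Dync2li1. A gapped inverted repeat, made of GTTNCC, then any 2 bases, then GGNNAC, and searched on both strands, stood in the windows of 5 of the 32 members (15.6%), namely Ift22, Ift57, Bbs1, Bbs4 and Bbs7, and in 2.02% of the windows of 12285 genes tested (1.29% of all 32851 windows). The half-site GTTGCC, which lies inside some of those repeats, stood in 12 of the 32 (37.5%) and in 15.6% of those of the genes tested (12.5% of all windows). In all, 7 overlapping patterns were searched. These patterns are given because their shares stood out after the counts were seen; a strict form, GTTGCC followed at once by ATGG, stood in 0 of the 32 windows, in 0.70% of those of the genes tested and in 0.563% of all. A few stretches are shown because their letters lie before the start site of a train, motor or BBSome gene (for Kif3a a start inside the span of the gene), with the matched letters in capitals, 5′ to 3′ on the strand of the gene.
Bbs7, chr3:36613477-36613530, minus strand: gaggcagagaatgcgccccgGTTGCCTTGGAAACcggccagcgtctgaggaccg
Ift57, chr16:49699187-49699240, plus strand: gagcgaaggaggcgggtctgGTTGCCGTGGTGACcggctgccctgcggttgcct
Ift22, chr5:136908067-136908120, plus strand: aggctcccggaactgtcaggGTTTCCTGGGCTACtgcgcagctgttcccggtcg
Kif3a, chr11:53567251-53567296, plus strand: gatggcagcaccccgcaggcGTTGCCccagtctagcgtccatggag
Ift140, chr17:25015957-25016002, plus strand: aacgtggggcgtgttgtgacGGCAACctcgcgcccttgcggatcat
Those of Bbs7, Ift57 and Ift22 hold the gapped repeat and those of Kif3a and Ift140 hold the half-site, in Ift140 on the opposite strand. A match is a description of letters and not a measured binding site. Of these genes, Bbs7 and Kif3a rose in null RNA, Kif3a and Ift140 rose in null footprints, and Ift57 and Ift22 were called in no contrast of null with WT.

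The genotype labels were checked on Piwil1, which had 3.52 and 2.27 CPM (the gene's share of the scaled library size, on the usual CPM scale) in null RNA, against 552 and 533 CPM in WT RNA. Its footprints were 3.30 and 3.26 CPM in null testes, against 482 and 390 CPM in WT testes. Library totals lay between 11130949 and 28334622 counts, so that 1 count stood for 0.034 to 0.0893 CPM. Footprint replicates spread more than RNA replicates: the median difference between the replicates of a member was 0.177 in null RPF and 0.204 in WT RPF, against 0.0432 in null RNA and 0.0907 in WT RNA, all on the log2 scale. Cell type markers differed between genotypes. The 6 markers of elongating spermatids summed to 1408.2 and 1400.9 CPM in null RNA, against 13648 and 13477 CPM in WT RNA, and all 6 fell in both assays. The 6 pachytene spermatocyte markers summed to 1965 and 1937 CPM in null RNA, against 1320 and 1365 CPM in WT RNA, whereas their footprint sums overlapped, at 2543 and 2476 CPM in null testes and 2501 and 2656 CPM in WT testes. The 6 Leydig markers summed to 2270.0 and 2277 CPM in null RNA, against 1212 and 1197 CPM in WT RNA. In footprints they summed to 7915 and 8792 CPM in null testes, against 2484 and 2414 CPM in WT testes. Of these 6, 3 rose and Cyp11a1 fell in RNA (log2 change -0.87), and 4 rose and 0 fell in footprints. Of the 6 round spermatid markers, Tssk1 and Tssk2 fell in RNA and the other 4 were not called. The median log2 change in RNA was -0.008 over the 6, and 5 of the 6 fell in footprints. Their sums were 795.3 and 805.7 CPM in null RNA, against 1410.5 and 1367.8 CPM in WT RNA. In footprints the sums were 945 and 951 CPM in null testes, against 1692.8 and 1689.8 CPM in WT testes. RNA sums were also lower in null for Sertoli markers (167 and 160.2 CPM, against 279 and 261 CPM in WT), for peritubular myoid and smooth muscle markers (131 and 128 CPM, against 397 and 385 CPM in WT) and for spermatogonial markers (126 and 127 CPM, against 181 and 179.7 CPM in WT), and the footprint sums of the Sertoli and spermatogonial markers overlapped. Macrophage sums were lower in null RNA too, at 120 and 118 CPM, against 160 and 178 CPM in WT. Of those 6 markers 2 rose and 1 fell in RNA, so the sum does not speak for each marker. Endothelial sums were also lower, at 46.0 and 44.7 CPM in null RNA, against 61.1 and 54.1 CPM in WT RNA. Multiciliated epithelium is a further kind of ciliated tissue, not necessarily the only one, that a testis sample with attached ducts could hold. Its 6 markers summed to 299 and 292 CPM in null RNA, against 304 and 289.9 CPM in WT RNA. Mcidas was at 0 in both WT RNA libraries. Footprints of these markers summed to 98.0 and 109.6 CPM in null testes, against 153 and 134.6 CPM in WT testes. Of the 5 markers tested, 2 rose and 0 fell in RNA, and 1 rose and 1 fell in footprints. In whole testes, fewer cells of a type and less RNA per cell cannot be told apart, and the part of these shifts in the results below was not tested.

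Total RNA of the transport genes was mostly higher in null testes. By edgeR's quasi-likelihood test with Benjamini-Hochberg adjustment over the 16051 genes tested, called here at an adjusted p under 0.05, 13 of the 36 members rose and 1 fell, while 16.5% of all genes rose and 20.8% fell. The median log2 change was 0.30 over the members and -0.07 over all genes. Both null libraries lay above both WT libraries for 28 members, against 34.7% of all genes, and below them for 6 members, against 43.1% of all genes; Hspb11 and Traf3ip1 overlapped. The largest rises were in the dynein-2 genes Dync2h1 and Wdr34, the only members above a 2-fold change. The summed RNA of the 36 genes was 6249 and 6258 CPM in null testes, against 4854 and 4954 CPM in WT testes.

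Footprints of the members were also more often higher than lower in null testes. By the same test 12 members rose and 2 fell, while 12.0% of all genes rose and 13.4% fell. The median log2 change was 0.25 over the members and -0.005 over all genes. Both null libraries lay above both WT libraries for 20 members, against 28.3% of all genes, and below them for 5, against 29.3% of all genes, and 11 members overlapped. Bbs1 and Wdr34 were the members above a 2-fold change. The 36 genes summed to 7637 and 7198 CPM in null footprints, against 5658 and 6068 CPM in WT footprints. In both assays 7 members rose, namely Wdr35, Ift46, Cluap1, Bbs1, Kif3a, Dync2h1 and Wdr34. Rises called in RNA and not in footprints were those of Ift74, Ift88, Ift80, Bbs7 and Ttc8, and rises called in footprints and not in RNA were those of Ift122, Ift140, Ift172 and Dync2li1. The shares of all genes with such combinations of rises were not counted, so these names are a description of the members only.

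**Figure D1:**
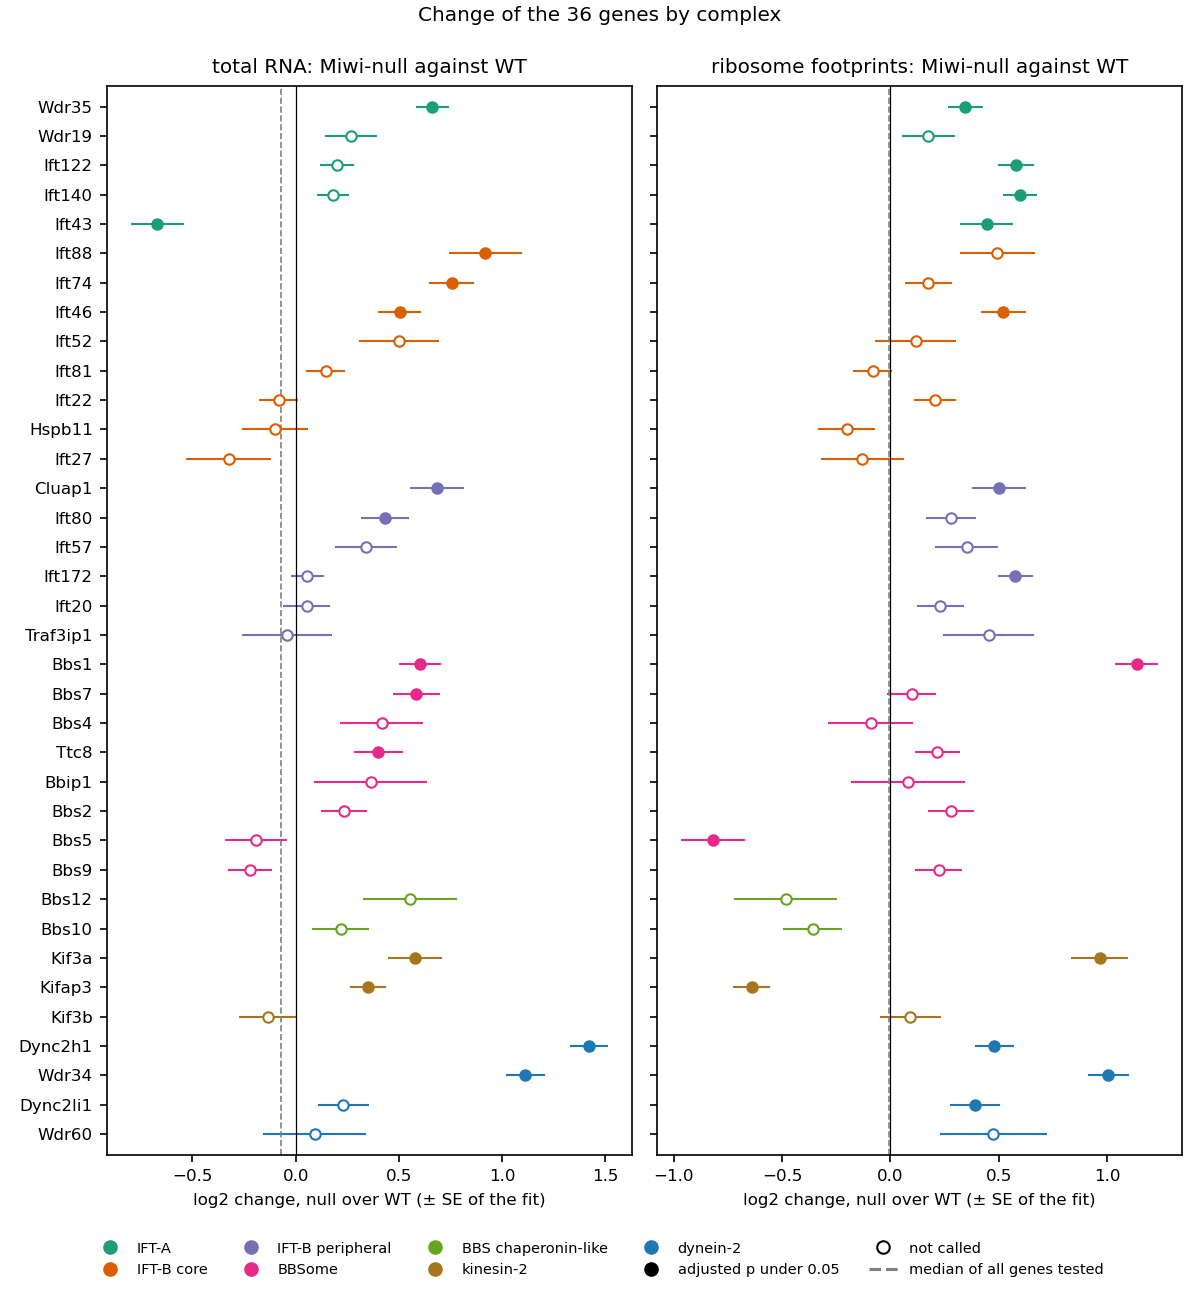
Log2 change, Miwi-null over WT, of the 36 genes grouped by complex, in total RNA (left) and ribosome footprints (right), with bars for the SE of the fit. Filled points had an adjusted p under 0.05, and the dashed line is the median of all genes tested; 13 filled points lie right of 0 and 1 left of it in RNA, and 12 right and 2 left in footprints.

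Footprint changes followed RNA changes loosely. Over the 36 members, Pearson's r between both changes was 0.33 and Spearman's rho was 0.31, given as a description, since both changes come from a single fit and the members are not independent replicates. Kifap3 rose in RNA and fell in footprints, a combination of calls found in 0.673% of all genes. Ift43 fell in RNA and rose in footprints, a combination found in 0.698% of all genes. None of RNA, footprints and the ratio of both was called for 17 members, which is 47.2% of them, against 52.4% of all genes.

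**Figure D2:**
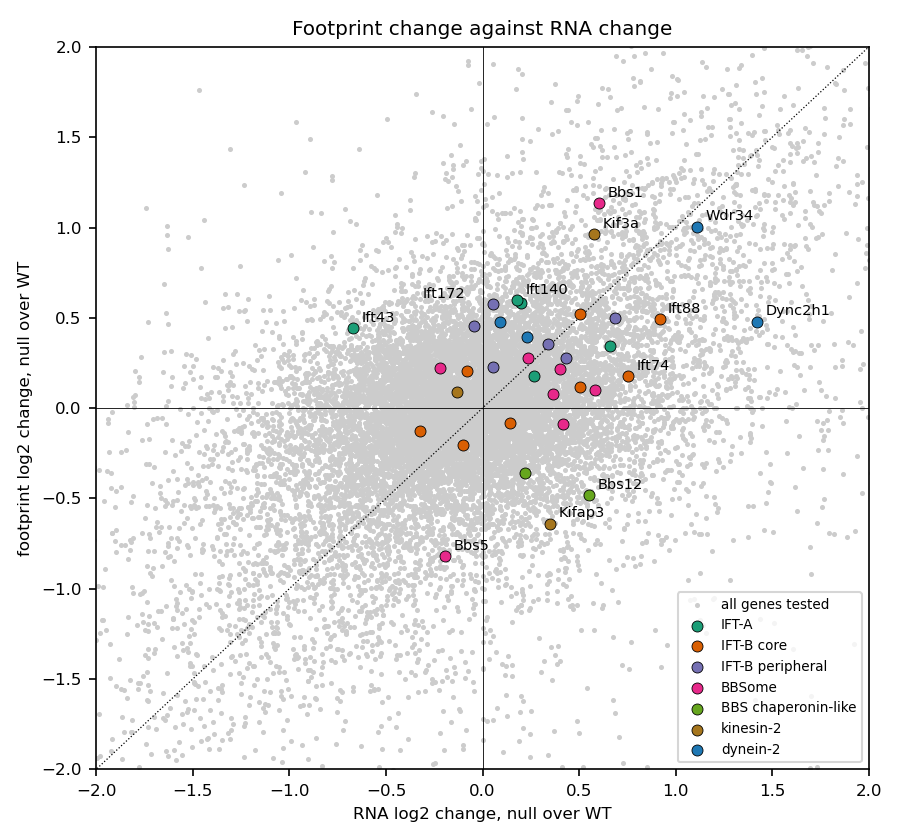
Footprint log2 change (vertical axis) against RNA log2 change (horizontal axis), Miwi-null over WT, for the 36 genes coloured by complex and for all genes tested in grey; the dotted line marks equal change. The axes stop at 2 and -2, which leaves 934 grey genes outside; Kifap3 lies at 0.35 in RNA and -0.64 in footprints, and Ift43 at -0.67 and 0.44.

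The dynein-2 genes held the largest RNA changes. Dync2h1 (chr9:6928550-7178306) encodes the heavy chain, the motor subunit that drives transport back to the cell body. It had 755 and 773 CPM in null RNA, against 269 and 301 CPM in WT RNA. The footprint libraries held 233 and 236 CPM in null testes, against 172 and 164 CPM in WT testes. The null libraries were above the WT libraries in both assays, by much more in RNA. The RNA log2 change was 1.42 ± 0.09 (SE; adjusted p = 1.5e-05) and the footprint log2 change was 0.48 ± 0.09 (adjusted p = 0.0051). Wdr34 (chr2:30031551-30048879), an intermediate chain of the same motor, had 192 and 201 CPM in null RNA, against 92.8 and 89.3 CPM in WT RNA. In footprints it had 117 and 130 CPM in null testes, against 62.1 and 60.9 CPM in WT testes. RNA and footprints were both raised, with log2 changes of 1.11 ± 0.09 in RNA (adjusted p = 6.4e-05) and 1.01 ± 0.09 in footprints (adjusted p = 1.1e-04), and the difference of both was -0.11 ± 0.13 (adjusted p = 0.64). Dync2li1, the light intermediate chain, was called in footprints (log2 change 0.39 ± 0.12, adjusted p = 0.037) and not in RNA (0.23 ± 0.12, adjusted p = 0.18). Wdr60, the other intermediate chain, was called in neither, and its footprint replicates lay far apart: 331 and 240.2 CPM in null testes, against 149 and 263 CPM in WT testes. The footprint call of Dync2h1 was lost when the footprint libraries were fitted alone (adjusted p = 0.072). That of Dync2li1 was lost in 9 of 18 alternative settings, with adjusted p up to 0.19 without the first null RPF library.

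The kinesin-2 subunits took different directions. Kif3a (chr11:53565701-53604248), a motor subunit, had 130.4 and 126 CPM in null RNA, against 85.0 and 86.7 CPM in WT RNA. Its footprints were 419.5 and 380.5 CPM in null testes, against 177 and 233 CPM in WT testes. Null libraries were above WT libraries in both assays. Log2 changes were 0.58 ± 0.13 in RNA (adjusted p = 0.0096) and 0.96 ± 0.13 in footprints (adjusted p = 8.9e-04). Kifap3 (chr1:163762138-163917107) encodes the accessory subunit that links the motor to cargo. It had 267 and 269 CPM in null RNA, against 201 and 219 CPM in WT RNA, so that RNA was higher in null. The footprint libraries held 291 and 285 CPM in null testes, against 458 and 440.5 CPM in WT testes, so that footprints were lower in null. This gave a log2 change of 0.35 ± 0.09 in RNA (adjusted p = 0.013) and -0.64 ± 0.09 in footprints (adjusted p = 8.3e-04). Kif3b, the partner motor subunit of Kif3a, was called in neither assay, with log2 changes of -0.13 ± 0.14 in RNA and 0.09 ± 0.14 in footprints. Of these calls, that of Kif3a in RNA was lost when any single RNA library was left out (adjusted p of 0.072 and 0.052 without the first and second null library, 0.077 and 0.061 without the first and second WT library). That of Kifap3 in RNA was lost without either null RNA library (adjusted p = 0.096 and 0.10) and without the first WT RNA library (adjusted p = 0.11).

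Of the 5 members from IFT-A, the complex of the return trip, 4 rose in footprints, whereas in RNA 1 rose and 1 fell. The share called was 80% in footprints and 40% in RNA, against 25.4% and 37.3% of all genes. These shares leave out Ttc21b, an IFT-A subunit that is not a member and is counted in a list below. It rose in RNA (0.34 ± 0.10, adjusted p = 0.032) and was not called in footprints (0.19 ± 0.10, adjusted p = 0.22). Ift140 (chr17:25016083-25099499), a core subunit, had 1149.7 and 1134 CPM in null RNA, against 1024 and 992 CPM in WT RNA. In footprints it had 719 and 748 CPM in null testes, against 484 and 485 CPM in WT testes. Both assays were higher in null, by less in RNA. The log2 change was 0.18 ± 0.08 in RNA (adjusted p = 0.10) and 0.60 ± 0.08 in footprints (adjusted p = 6.9e-04). Ift122, another core subunit, had a like pair of changes, 0.20 ± 0.08 in RNA (adjusted p = 0.092) and 0.58 ± 0.08 in footprints (adjusted p = 0.0012). Wdr35, which binds Ift43 at the edge of the complex, rose by 0.66 ± 0.08 in RNA (adjusted p = 4.5e-04) and by 0.35 ± 0.08 in footprints (adjusted p = 0.015). Wdr19 was called in neither, at 0.27 ± 0.12 in RNA and 0.18 ± 0.12 in footprints. The footprint call of Wdr35 was lost in 4 of 18 settings: with the footprint libraries alone (adjusted p = 0.16), without either null RNA library (adjusted p = 0.054 in each) and without the second null RPF library (adjusted p = 0.057).

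Ift43 (chr12:86082561-86162459), the small peripheral subunit of IFT-A, was the member whose RNA fell. It had 60.7 and 58.2 CPM in null RNA, against 94.1 and 95.2 CPM in WT RNA. Its footprints were 467 and 548 CPM in null testes, against 412 and 334 CPM in WT testes. RNA was lower and footprints were higher in null, with no overlap in either assay. Log2 changes were -0.67 ± 0.13 in RNA (adjusted p = 0.0039) and 0.44 ± 0.12 in footprints (adjusted p = 0.029). The RNA fall depended on which of the 3 counted transcripts stood for the gene. The transcript with the most counts changed by -0.67, a shorter one by -1.31, and the one the tables mark as canonical by -0.18, each the log2 ratio of mean CPM. With the canonical transcript in the fit, chosen as an alternative after these values were seen, the RNA change was -0.19 with an adjusted p of 0.27. Footprints of the 3 transcripts changed by 0.42 to 0.46, and a footprint may stand in the counts of more than one of them. The footprint call was lost in 9 of 18 settings, among them those without any single RNA library (adjusted p of 0.065 in each), without the second null RPF library (adjusted p = 0.12) and without the second WT RPF library (adjusted p = 0.069).

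**Figure D3:**
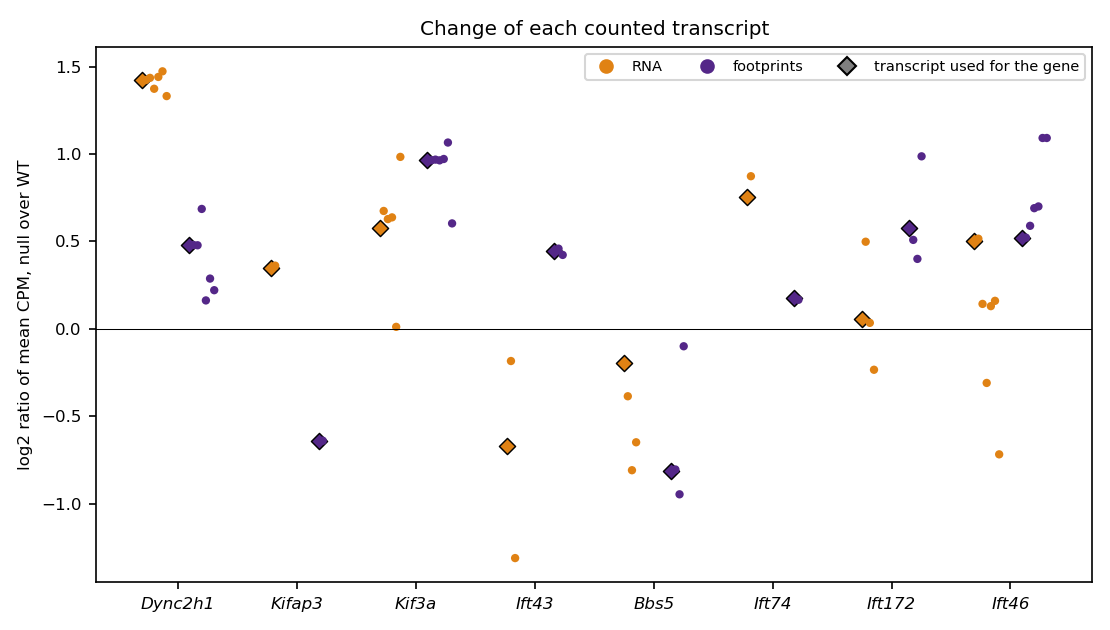
Log2 ratio of mean CPM, Miwi-null over WT, for each counted transcript of 8 members, in RNA (orange) and footprints (purple); diamonds mark the transcript used for the gene. The 3 Ift43 transcripts run from -1.31 to -0.18 in RNA and from 0.42 to 0.46 in footprints, whereas those of Dync2h1 run from 1.33 to 1.47 in RNA.

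Of the 8 members from the core of IFT-B, the forward train, 3 rose in RNA and 1 rose in footprints. The share called was 37.5% in RNA and 12.5% in footprints, against 37.3% and 25.4% of all genes. These shares leave out further IFT-B subunits, which are not members and are counted in a list below. Among those, footprints rose for Ttc26 (0.88 ± 0.12), Ttc30a2 (0.43 ± 0.14, adjusted p = 0.048) and Ttc30b (0.57 ± 0.18, adjusted p = 0.044). Ttc30a1 was not called in footprints (0.29 ± 0.19, adjusted p = 0.30). Ift88 (chr14:57424064-57517936), needed for mouse cilia of most kinds, had 146 and 149 CPM in null RNA, against 75.6 and 80.6 CPM in WT RNA. The footprint libraries held 273 and 206 CPM in null testes, against 143 and 198 CPM in WT testes. Null RNA was clearly separate from WT RNA, and null footprints were above WT footprints by a narrow margin. This gave a log2 change of 0.92 ± 0.18 in RNA (adjusted p = 0.0042) and 0.49 ± 0.17 in footprints (adjusted p = 0.069). Ift74 (chr4:94603266-94693233), which with Ift81 binds tubulin, had 201 and 200.1 CPM in null RNA, against 116 and 121 CPM in WT RNA. In footprints it had 334 and 295 CPM in null testes, against 255 and 301 CPM in WT testes, and the groups overlapped. Its log2 change was 0.75 ± 0.11 in RNA (adjusted p = 0.0011) and 0.17 ± 0.11 in footprints (adjusted p = 0.28). Ift46 rose by 0.50 ± 0.10 in RNA (adjusted p = 0.0060) and by 0.52 ± 0.10 in footprints (adjusted p = 0.0069). Ift52, Ift81, Ift22, Ift27 and Hspb11 were called in neither, with log2 changes from -0.32 for Ift27 to 0.50 for Ift52 in RNA and from -0.20 for Hspb11 to 0.21 for Ift22 in footprints. The RNA call of Ift88 was lost without the first WT RNA library (adjusted p = 0.052). That of Ift46 was lost without the second null (adjusted p = 0.056) or the second WT RNA library (adjusted p = 0.052), and its footprint call was lost with the footprint libraries alone (adjusted p = 0.077).

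Of the 6 peripheral IFT-B genes, whose products join the train to kinesin-2, Cluap1 and Ift80 rose in RNA and Cluap1 and Ift172 rose in footprints. The share called was 33.3% in each assay, against 37.3% of all genes in RNA and 25.4% in footprints. Cluap1 (chr16:3907194-3942299), also known as IFT38, had 80.8 and 81.0 CPM in null RNA, against 46.5 and 54.2 CPM in WT RNA. Its footprints were 286 and 264 CPM in null testes, against 174 and 215 CPM in WT testes. Both assays were higher in null, without overlap. The log2 change was 0.68 ± 0.13 in RNA (adjusted p = 0.0040) and 0.50 ± 0.13 in footprints (adjusted p = 0.020). Ift172 (chr5:31253279-31291391), which in the alga Chlamydomonas acts where trains turn at the tip, had 749 and 747 CPM in null RNA, against 719.5 and 719.9 CPM in WT RNA. The footprint libraries held 553 and 519 CPM in null testes, against 357 and 362 CPM in WT testes. RNA was nearly level and footprints were well above WT. Log2 changes were 0.06 ± 0.08 in RNA (adjusted p = 0.62) and 0.58 ± 0.08 in footprints (adjusted p = 0.0010). Ift80 rose by 0.43 ± 0.12 in RNA (adjusted p = 0.019), and Ift20, Ift57 and Traf3ip1 were called in neither assay. The RNA call of Ift80 was lost without any single RNA library (adjusted p of 0.066 to 0.14). That of Cluap1 was lost in RNA without the first WT RNA library (adjusted p = 0.051) and in footprints without the first null RPF library (adjusted p = 0.081) and with the footprint libraries alone (adjusted p = 0.11), and the footprint call of Ift172 reached an adjusted p of 0.051 with the footprint libraries alone.

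BBSome genes rose in RNA in 3 of 8 cases, and in footprints 1 rose and 1 fell. The share called was 37.5% in RNA and 25% in footprints, against 37.3% and 25.4% of all genes. Bbs1 (chr19:4886878-4906653) encodes the subunit through which the complex meets its recruiting GTPase Arl6. It had 40.3 and 38.7 CPM in null RNA, against 26.9 and 25.2 CPM in WT RNA. In footprints it had 45.7 and 45.6 CPM in null testes, against 21.4 and 20.2 CPM in WT testes. Null libraries were above WT libraries in both assays, and footprints differed more than RNA. This gave a log2 change of 0.60 ± 0.10 in RNA (adjusted p = 0.0022) and 1.13 ± 0.10 in footprints (adjusted p = 7.3e-05). Bbs5 (chr2:69646848-69667571), a subunit with lipid-binding domains, had 42.2 and 43.4 CPM in null RNA, against 45.9 and 52.0 CPM in WT RNA. Its footprints were 80.8 and 65.9 CPM in null testes, against 114 and 144 CPM in WT testes. Footprints were lower in null and did not overlap. The log2 change was -0.19 ± 0.15 in RNA (adjusted p = 0.35) and -0.82 ± 0.15 in footprints (adjusted p = 0.0041). Bbs7 rose by 0.58 ± 0.11 in RNA (adjusted p = 0.0047) and Ttc8 by 0.40 ± 0.12 (adjusted p = 0.029), and neither was called in footprints. Bbs2, Bbs4, Bbs9 and Bbip1 were called in neither assay. The RNA call of Bbs7 was lost without the first WT RNA library (adjusted p = 0.053), and that of Ttc8 without any single RNA library (adjusted p of 0.072 to 0.20). Bbs10 and Bbs12, which help to assemble the BBSome, were not called in RNA (log2 changes of 0.22 ± 0.14 and 0.55 ± 0.23) or in footprints (-0.36 ± 0.14 and -0.48 ± 0.24).

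**Figure D4:**
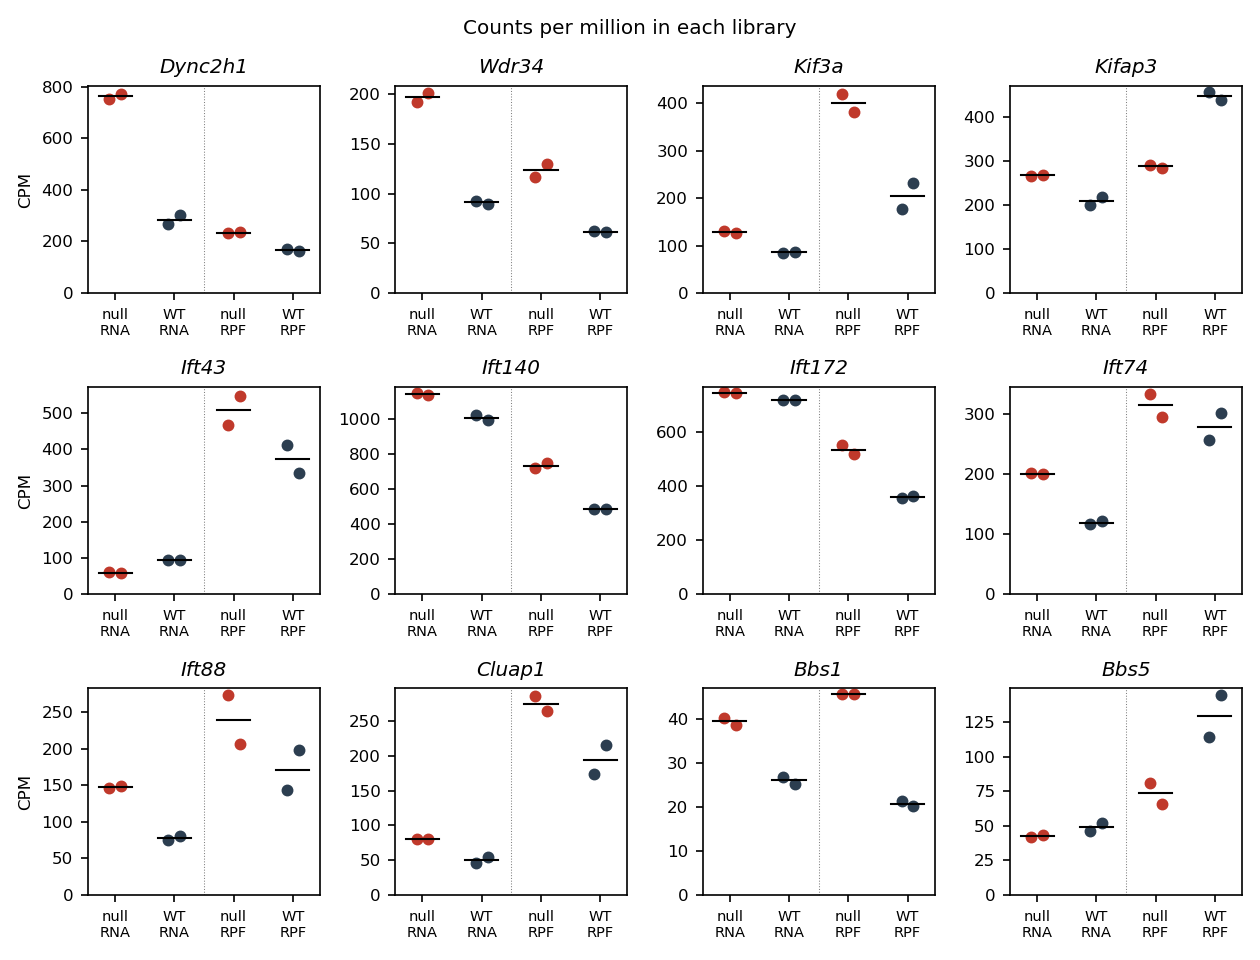
CPM in each of the 8 libraries for 12 members, with null RNA, WT RNA, null RPF and WT RPF from left to right; points are libraries and the line is their mean, on axes that start at 0. Kifap3 is higher in null RNA and lower in null footprints, and Ift43 shows the opposite.

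Footprints relative to RNA, called translational efficiency (TE) here, compare a gene's share of footprints with its share of RNA and carry no absolute amount. In null testes 18 members had more footprints than RNA and 8 had fewer by the same test, against 38.4% and 37.1% of all genes. In WT testes 22 members had more and 8 had fewer, against 37.7% and 36.4% of all genes. The order of the members was much the same in both genotypes, with Spearman's rho of 0.94 over the 36 members, a description of values from one fit. Coding length and the WT log2 ratio gave a rho of -0.54 over the 36 members, again as a description. Among the members the null log2 ratio ran from -1.70 for Dync2h1 to 3.09 for Ift43, and the WT log2 ratio from -1.28 for Bbs9 to 2.15 for Dync2li1.

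The change of TE between genotypes, tested as the interaction of genotype and assay, was called for 7 members. Ift43, Bbs1, Ift172 and Ift140 rose, while 7.36% of all genes rose, and Kifap3, Dync2h1 and Ift74 fell, while 7.56% of all genes fell. These shares, 11.1% and 8.33% of the members, lie near those of all genes, and the median log2 change was -0.10 over the members and 0.04 over all genes. Ift43 had 8.54 times as many footprint CPM as RNA CPM in null testes and 3.94 times as many in WT testes, a log2 change of 1.11 ± 0.18 (adjusted p = 0.0058). Kifap3 had ratios of 1.08 in null and 2.14 in WT testes, a log2 change of -0.99 ± 0.12 (adjusted p = 0.0020). Dync2h1 had ratios of 0.307 in null and 0.590 in WT testes, a log2 change of -0.94 ± 0.13 (adjusted p = 0.0030). Among the 7, the calls of Ift43, Kifap3 and Dync2h1 held under all 17 alternatives run, whereas for Ift43 the size went down to 0.64 with the canonical transcript.

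The other TE calls were smaller and held in fewer settings. Of 17 alternatives, the call was lost in 12 for Bbs1, in 10 for Ift140 and in 6 each for Ift172 and Ift74. Bbs1 rose by 0.53 ± 0.14 (adjusted p = 0.039), Ift172 by 0.52 ± 0.11 (adjusted p = 0.019) and Ift140 by 0.42 ± 0.11 (adjusted p = 0.037), and Ift74 fell by 0.58 ± 0.15 on the log2 scale (adjusted p = 0.039). Each was lost when any single RNA library was left out, with adjusted p of 0.082 to 0.17 for Bbs1, 0.074 to 0.12 for Ift172, 0.097 to 0.19 for Ift140 and 0.11 to 0.16 for Ift74. Without the first null RPF library the adjusted p was 0.082 for Bbs1 and 0.053 for Ift140, and without the second it was 0.11 for Bbs1, 0.12 for Ift140 and 0.080 for Ift74. The balance of 4 higher to 3 lower also moved with the scaling: without TMM scaling it was 1 higher to 6 lower, and with TMM within each assay or with DESeq2 it was 2 higher to 3 lower. The TE calls over all genes moved the same way. They were 1181 higher and 1214 lower in the main fit, and 679 higher and 1648 lower without TMM. With TMM within each assay they were 925 higher and 1448 lower, and with DESeq2 1003 higher and 1157 lower. Without TMM the TE median of all genes moved to -0.10. In the authors' deposited table, which has no replicate test, the log2 TE change was 1.07 for Ift43, -1.12 for Kifap3, -1.11 for Dync2h1, -0.75 for Ift74, 0.42 for Bbs1, 0.37 for Ift140 and 0.35 for Ift172. Their mark for Ift43 was Unknown, and for the others it was Up or Down by sign. Some members not called here were marked too, such as Cluap1, Down at -0.70, against -0.18 in the fit. Another was Ift22, Up at 0.44, against 0.29 in the fit.

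**Figure D5:**
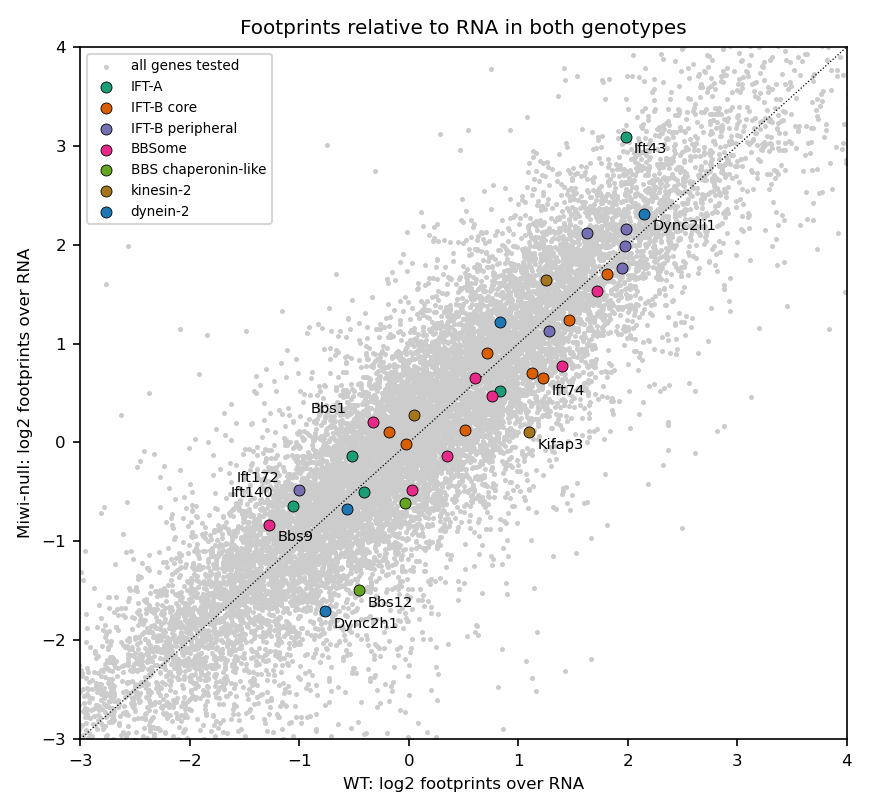
Log2 ratio of footprints to RNA in Miwi-null testes (vertical axis) against that in WT testes (horizontal axis), for the 36 genes coloured by complex and all genes tested in grey; the dotted line marks equal ratios. The axes run from -3 to 4, which leaves 1219 grey genes outside; Ift43 lies above the line, and Kifap3 and Dync2h1 lie below it.

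Per kilobase of coding length, levels of the members differed widely. In RNA the mean level ran from 3.46 CPM per kb for Bbs12 to 260.0 CPM per kb for Ift140 in null testes, and from 2.37 to 229.5 CPM per kb for the same genes in WT testes. In footprints it ran from 1.21 CPM per kb for Bbs12 to 821 CPM per kb for Ift43 in null testes, and from 1.69 to 604 CPM per kb for the same genes in WT testes. The member medians were 52.2 CPM per kb in null RNA and 40.7 in WT RNA, and 104 CPM per kb in null footprints and 85.5 in WT footprints.

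Other ciliary genes were set beside the members by lists. Of all genes tested, 16.5% rose and 20.8% fell in RNA, 12.0% and 13.4% in footprints, and 7.36% and 7.56% in TE. Of 17 further subunits and partners of the same complexes, 4 rose and 5 fell in RNA. In footprints 3 rose and 2 fell, and 3 rose in TE. The shares called were 52.9%, 29.4% and 17.6%, against 37.3%, 25.4% and 14.9% of all genes. Dynlrb1, a light chain of cytoplasmic dyneins, had 2.91 and 3.23 CPM in null RNA, against 11.1 and 13.7 CPM in WT RNA (log2 change -2.01 ± 0.24, adjusted p = 3.7e-04), and its TE rose by 1.68 ± 0.30 (adjusted p = 0.0093). Dynll2, another light chain, changed by -1.57 ± 0.10 in RNA (adjusted p = 1.5e-05), by -0.74 ± 0.10 in footprints (adjusted p = 7.7e-04) and by 0.83 ± 0.14 in TE (adjusted p = 0.0074). Ttc26, the IFT-B subunit also known as IFT56, rose by 1.08 ± 0.12 in RNA (adjusted p = 2.6e-04) and by 0.88 ± 0.12 in footprints (adjusted p = 7.4e-04). Its TE was not called (-0.20 ± 0.16, adjusted p = 0.46).

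Of 16 regulators and cargo adaptors of the trains, 4 rose and 3 fell in RNA. In footprints 3 rose and 3 fell, and in TE 1 rose and 2 fell. The shares called were 43.8%, 37.5% and 18.8%, against 37.3%, 25.4% and 14.9% of all genes. The GTPase gene Arl3 had 42.7 and 42.9 CPM in null RNA, against 108 and 123 CPM in WT RNA (log2 change -1.44 ± 0.22, adjusted p = 0.0016). Its footprints overlapped, at 739 and 609 CPM in null testes and 488 and 815 CPM in WT testes, and its TE rose by 1.49 ± 0.31 (adjusted p = 0.017). Spef2, a flagellar gene whose product binds Ift20 in mouse testis, rose by 0.95 ± 0.10 in RNA (adjusted p = 2.3e-04) and by 0.48 ± 0.10 in footprints (adjusted p = 0.0089). Tulp2 changed by -0.85 ± 0.09 in RNA (adjusted p = 1.6e-04) and by -0.49 ± 0.08 in footprints (adjusted p = 0.0033). The kinase gene Ttbk2 rose by 0.60 ± 0.09 in RNA (adjusted p = 0.0011) and changed by -0.40 ± 0.09 in footprints (adjusted p = 0.012). Its TE changed by -0.998 ± 0.13 (adjusted p = 0.0023).

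Of 16 transition zone genes tested, whose products gate the base of the cilium, 5 rose and 1 fell in RNA. In footprints 2 rose, and in TE 1 fell. The shares called were 37.5%, 12.5% and 6.25%, against 37.3%, 25.4% and 14.9% of all genes. Cep290 had 315 and 321 CPM in null RNA, against 106 and 117 CPM in WT RNA (log2 change 1.51 ± 0.12, adjusted p = 5.1e-05). It rose by 0.69 ± 0.12 in footprints (adjusted p = 0.0033), and its TE changed by -0.82 ± 0.17 (adjusted p = 0.016). Rpgrip1l rose by 0.84 ± 0.12 in RNA (adjusted p = 0.0011) and by 0.45 ± 0.12 in footprints (adjusted p = 0.026). Of the 4 planar polarity effectors, edgeR and DESeq2 called 0 in RNA, footprints and TE, and edgeR gave an unadjusted p under 0.05 for 0 in RNA, 1 in footprints and 0 in TE. Of the 5 RFX and FOXJ1 transcription factor genes, Rfx1 changed by -0.45 ± 0.13 in RNA (adjusted p = 0.024), Rfx4 by 0.38 ± 0.09 in footprints (adjusted p = 0.018) and by 0.49 ± 0.13 in TE (adjusted p = 0.044), and Rfx3 by -0.71 ± 0.19 in TE (adjusted p = 0.043), with no other call.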

How the data were processed

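Fragment counts per transcript are whole numbers that the authors deposited without normalization, per the file headers, in 1 table per replicate number, next to a merged table that equals their sum for all 99671 transcripts. The deposited log2 changes of TE are the authors' own, from pooled counts. Per the submitters' processing notes the build is GRCm38 and the tools include STAR 2.5.0a, Bowtie 1.2.2 and cutadapt 2.5, whose roles are not stated. How fragments were assigned (program, strand, multiple matches) is not given in these sources. The length column is a coding length, a multiple of 3 in every member. Counts summed over the transcripts of a gene are 2.23 to 2.39 times those of its largest transcript, so a fragment may stand in the counts of several transcripts, and the transcript with the highest mean count stood for a gene, the canonical one in 29 of 36 members. Reads of Ift122, Ift140, Ift74, Cluap1, Bbip1 and Dync2h1 may include those of protein-coding genes that overlap them.

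Counts were fitted with edgeR 4.0.16 (R 4.3.3): filterByExpr with a minimum count of 10 and total of 15, TMM over 8 libraries, and a robust quasi-likelihood model of 4 groups with 4 residual degrees of freedom. The test was tried on simulated data first. Errors are SEs from this fit, whose single dispersion per gene is pooled over both assays, although footprint replicates spread more. Gene coordinates are from RefSeq, GRCm38.p6. Values in every library are given for called members with the 6 largest changes of each contrast, and for those with opposite calls. Genes of other lists are named by the 2 largest called changes per contrast. The IFT-A subunit Ttc21b and the IFT-B subunits Ttc30a1, Ttc30a2 and Ttc30b are also named, beside the members of their complexes. Members and lists were chosen with earlier results of these data known. Replicate counts in each group differed by more than sampling noise (chi-square per gene of 1.17 in null RNA, p = 1.1e-49, 3.69 in WT RNA, 21.4 in null RPF and 42.8 in WT RPF). DESeq2 1.42.0 and other settings were run as alternatives.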

Additional observations from a re-analysis of the deposited data

Results flagged for a closer look

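For 7 members the change between genotypes in footprints differed from that in RNA by the test of the difference itself (edgeR's interaction term, adjusted p under 0.05). The log2 footprint change minus the log2 RNA change was 1.115 for Ift43, 0.5327 for Bbs1, 0.52 for Ift172 and 0.4184 for Ift140, and -0.9906 for Kifap3, -0.9426 for Dync2h1 and -0.5797 for Ift74. For Ift43 and Kifap3 the RNA and footprint changes had opposite signs.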

How the results depend on the processing

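No member called in RNA, footprints or TE turned its direction under any of the alternatives run. Calls held in every setting for Bbs1, Dync2h1, Ift74, Wdr34 and Wdr35 in RNA, for Bbs1, Bbs5, Ift122, Ift140, Kif3a, Kifap3 and Wdr34 in footprints, and for Dync2h1, Ift43 and Kifap3 in TE. With each assay fitted alone, 30 members were called in RNA (27 higher, 3 lower), against 14 in the joint fit, and 7 in footprints (5 higher, 2 lower), against 14; the share of all genes called moved too, to 59.3% in RNA, against 37.3%, and to 12.7% in footprints, against 25.4%. With a library left out in turn, the number called ran from 7 to 22 in RNA (7 without the first WT RNA, 9 without the second null RNA and 22 without the first WT RPF library), from 11 to 21 in footprints (21 without the second WT RPF library), and from 3 to 13 in TE (3 without any single RNA library, 4 without the second null RPF, 11 without the first WT RPF and 13 without the second WT RPF library), against 7, while the share of all genes called ran from 19.9% to 43.6% in RNA, from 18.0% to 31.8% in footprints and from 3.8% to 22.4% in TE; the cause was not tested, and a lone library left in a group is assumed to vary like the others. The fitted trend of the RNA log2 change on coding length ran from -0.444 at 300 bases to 0.24 at 9600 bases. In footprints it ran from -0.0792 to 0.135. The RNA change of Bbip1, whose coding length is 201 bases, was 0.93 with the trend on coding length removed, against 0.36. For Dync2h1, whose coding length is 12918 bases, the RNA change went down to 1.11 over the alternatives run, against 1.42. Same-numbered RNA libraries did not deviate together: the correlation of null and WT deviations was -0.00406 over 10171 genes. Same-numbered RPF libraries deviated in opposite directions, with a correlation of -0.808. The first null RPF library thus deviated with the second WT RPF library, and the second null with the first WT. The numbers were not taken as pairs, and the main fit holds no term for this crossed pattern, whose cause was not tested. With the replicate block, 13 members were called in RNA, 12 in footprints and 3 in TE, and 31.3%, 19.1% and 7.71% of all genes. With null and WT RPF numbers crossed in that block, chosen after seeing the data, 28 members were called in footprints (24 higher, 4 lower), with 51.0% of all genes, and 24 in TE (11 higher, 13 lower), with 40.7% of all genes. The lowest count of any member in a library was 27, for Bbs12, whose SE was 0.33 in TE beside an uncalled change of -1.04; whether depth or the 2 libraries per group limits its precision was not tested.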
